A study of Mus musculus with 6 samples.

Results

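The genes described here are 41 named genes of blood endothelium, lymphatic endothelium and angiogenesis, followed in mouse tracheal mesenchyme before and after injury of the airway lining. They were listed by name for their textbook roles, with earlier results of these data known, so the list was not independent of the data. All 41 were measured, out of 18193 named genes on the array, and each is read from 1 probe set (a group of short probes against 1 transcript), the one with the highest mean over the samples. The study compared uninjured trachea with trachea 48 h post injury (hpi) by sulfur dioxide, a gas that kills the luminal cells of the airway epithelium. The control group had 3 samples from male C57Bl/6 mice that were not exposed. The 48 hpi group had 3 samples from male C57Bl/6 mice that had breathed 500 ppm sulfur dioxide for 4 h. The mice were 8 to 12 weeks old, and no transgene or other agent was named for either group. Each sample pooled the tissue of 4 mice, so the p-values below measure the spread between pools. The epithelium was peeled away after 23 min in dispase, and the mesenchyme that was left was taken for RNA in both groups.

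Endothelial cells line blood and lymph vessels, and they are held together by junction proteins such as VE-cadherin, the product of Cdh5. Vascular endothelial growth factors (VEGFs) act through the receptors Kdr, Flt1 and Flt4 and drive the growth of blood and lymph vessels. Angiopoietins act through the TIE receptors and set whether vessels stay quiet and tight or become open to leakage and remodelling. In the trachea, a network of capillaries and lymphatic vessels lies in the mesenchyme just beneath the epithelium and between the cartilage rings.

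The values are RMA expression values, which are on a log2 scale, so that a difference of 1 is a change of 2-fold. A gene was called higher or lower where the adjusted p-value of limma (Benjamini-Hochberg, over all 45037 probe sets tested) was under 0.05. At 48 hpi, 7 of the 41 vascular genes were called higher, which is 17.1% of them, against 4.97% of all genes called higher. These were Aplnr, Icam2, Nos3, Sox18, Cdh5, Tie1 and Esam, with log2 fold changes from 0.48 to 1.19. No vascular gene was called lower with limma, against 1.24% of all genes, and 1 of the 41 was lower at an unadjusted p under 0.05 (9.29% of all genes). At that unadjusted threshold 18 of the 41 were higher, against 14.6% of all genes. The median log2 fold change of the 41 genes was 0.27, with a range from -0.80 to 1.19, beside a median of -0.01 over all genes. Of the 41 genes, 31 had a fold change above 0 and 10 below it, while 8510 of all genes were above 0 and 9683 below.

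The replicate numbers of the samples paired them across the groups, since samples with the same number deviated together from their group means. With the replicate number as a block, 14 of the 41 genes (34.1%) were higher, against 8.77% of all genes. The same fit called 1 vascular gene lower, Angpt1, against 4.64% of all genes. The 7 genes called without the block all remained among the 14. The number of calls without the block depended on single samples. It fell to 2 when either control replicate 3 or 48 hpi replicate 1 was left out. Leaving out 1 of control replicate 2, 48 hpi replicate 2 and 48 hpi replicate 3 gave 3 calls, and leaving out control replicate 1 gave 5. In these fits 1.92 to 3.56% of all genes were called higher. Without both samples numbered 1 it was 2 (2.27% of all genes). A test of each probe set on its own spread over these 6 arrays, which is not the study's own analysis with epithelial samples, called 0 of the 41 genes and 0.225% of all genes higher after adjustment. At an unadjusted p under 0.05 it had 12 of the 41 higher, against 13.2% of all genes. Aplnr and Nos3 passed in each of the 6 fits that left out 1 sample.

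**Figure D1:**
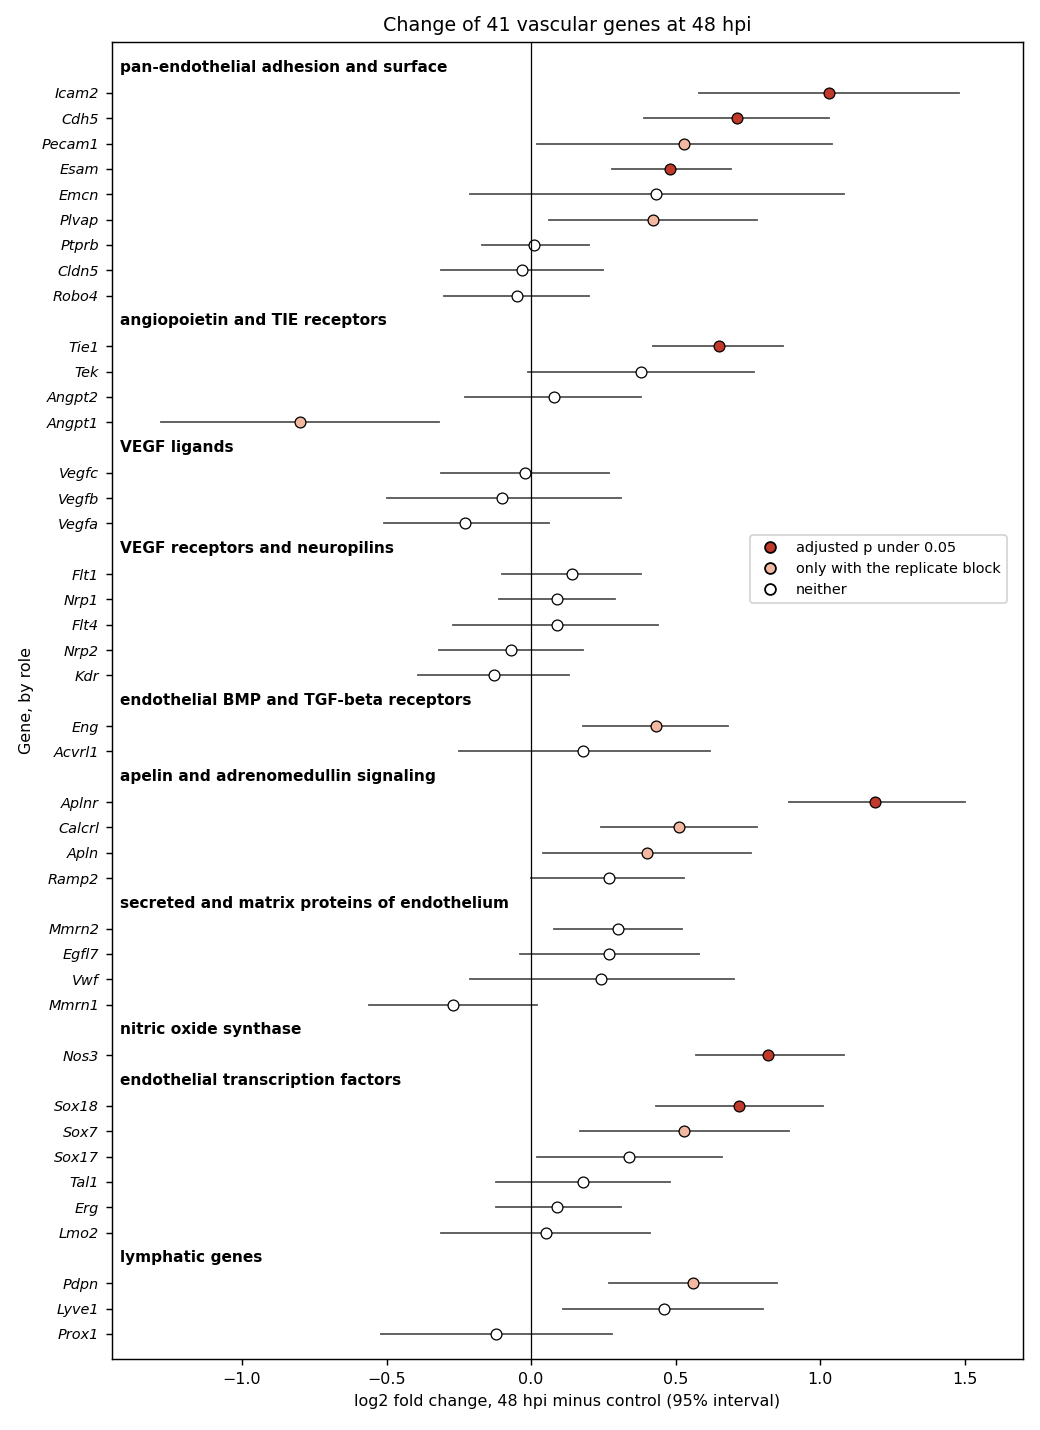
Log2 fold change (48 hpi minus control, horizontal axis) of the 41 vascular genes, grouped by role, with the 95% interval from limma as a line and the fill showing the call. The 7 called genes lie between 0.48 and 1.19, the 5 VEGF receptors and neuropilins lie between -0.13 and 0.14, and Angpt1 at -0.80 is the lowest of the 41.

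Counted by sample, all 3 values at 48 hpi were above all 3 control values for 16 of the 41 genes (39%), against 17.2% of all genes. All 3 were below the controls for 1 gene, Angpt1, where the share of all genes was 13.1%. The groups overlapped for the other 24 genes. Within pairs of samples with the same number, 25 of the 41 genes (61%) were higher at 48 hpi in all 3 pairs, against 26.6% of all genes. The mean over the 41 genes was 7.80, 7.76 and 7.63 in control replicates 1, 2 and 3, and 8.11, 7.95 and 7.93 at 48 hpi. In whole tissue, fewer cells of a type and less RNA per cell cannot be told apart, and the same holds for more of either.

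The tissue was checked against its markers. Genes of fibroblasts (list mean 10.82 to 11.32 over the 6 samples) and chondrocytes (10.91 to 11.76) were high in every sample. As a list, the markers of luminal airway epithelium also had signal, with a list mean of 10.28 to 11.05 in the controls and 8.95 to 10.79 at 48 hpi. Scgb1a1, the secretory protein of club cells, read 13.46, 12.69 and 12.50 in the controls and 12.31, 9.90 and 8.72 at 48 hpi. RNA of Scgb1a1 was thus present in all 6 samples, in amounts that differed between them. Foxj1, another of the luminal markers, read only 4.68 to 5.26 over the samples, so the list mean does not describe each marker. Of the 41 vascular genes, 40 had both group means above the 40th percentile of all probe sets (4.76), while Prox1, with means below that bound, was dim.

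Among the genes with a RefSeq promoter window are 3 receptors whose changes are set out below, and their windows are printed here because Tie1 is the only one of the 7 called genes with a window, Tek is its sister receptor, and Eng was higher with the replicate block. A window was held for 22 of the 41 genes, and the 250 bases before the transcript start are shown, 5′ to 3′ on the strand of the gene (GRCm38.p6, RefSeq). Capitals mark GGAA, the core letters of ETS factor motifs, or its reverse complement TTCC. The positions are chr4:118489850-118490099 on the minus strand for Tie1, chr4:94739039-94739288 on the plus strand for Tek and chr2:32646345-32646594 on the plus strand for Eng.
Tie1: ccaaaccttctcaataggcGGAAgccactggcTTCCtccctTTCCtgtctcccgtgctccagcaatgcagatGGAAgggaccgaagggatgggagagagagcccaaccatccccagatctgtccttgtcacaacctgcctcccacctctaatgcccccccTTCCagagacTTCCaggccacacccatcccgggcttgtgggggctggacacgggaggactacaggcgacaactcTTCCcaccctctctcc
Tek: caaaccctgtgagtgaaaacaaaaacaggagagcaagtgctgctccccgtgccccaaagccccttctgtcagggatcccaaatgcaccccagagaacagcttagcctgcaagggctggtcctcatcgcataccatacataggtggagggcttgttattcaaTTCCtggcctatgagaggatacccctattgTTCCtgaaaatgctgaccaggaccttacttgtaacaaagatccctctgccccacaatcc
Eng: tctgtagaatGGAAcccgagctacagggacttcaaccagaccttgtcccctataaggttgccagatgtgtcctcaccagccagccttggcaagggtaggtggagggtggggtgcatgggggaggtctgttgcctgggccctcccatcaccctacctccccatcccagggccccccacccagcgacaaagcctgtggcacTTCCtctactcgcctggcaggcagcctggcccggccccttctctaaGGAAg

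The Tie1 window held 7 matches to GGAA on either strand, the Tek window 2 and the Eng window 3. The 4 letters are common: 94.2% of 27025 genes with a window held at least 1 match, and so did 21 of the 22 vascular genes. The longer form CAGGAA (or TTCCTG), which contains GGAA, was present in windows of 11 of the 22 vascular genes (50%), against 28.3% of all genes. CCGGAA (or TTCCGG), which also contains GGAA, was present for 1 of the 22, against 13.6% of all genes. The SOX letters ACAANG (or CNTTGT) were present for 12 of the 22 (54.5%), against 39.9%. AGATAA (or TTATCT), the letters of GATA factors, was present for 3 of the 22, against 11.4%. These motifs were chosen after the values were seen. The matches describe the letters of the windows, with no measurement of factor binding.

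Of the 9 surface and adhesion proteins shared by most endothelium, 3 were called higher, 5 with the replicate block, and the median log2 fold change was 0.43. Icam2, an adhesion molecule of resting endothelium that leukocytes and platelets also carry, read 6.83, 6.88 and 6.25 in the controls and 7.92, 7.58 and 7.55 at 48 hpi. All samples at 48 hpi were above all controls, by a mean of 1.03 ± 0.19 (log2, SE; 2.04-fold; limma adjusted p = 0.0315). Cdh5, VE-cadherin of the adherens junction, read 6.86, 6.78 and 6.43 in the controls and 7.55, 7.37 and 7.28 at 48 hpi. It rose by 0.71 ± 0.14 (1.63-fold; limma adjusted p = 0.0353), and its groups did not overlap. A second probe set of Cdh5, dim at 4.16 to 4.39, gave -0.01 (limma adjusted p = 0.962). Esam, a tight junction molecule of endothelium and platelets, read 8.04, 8.02 and 7.93 in the controls and 8.59, 8.42 and 8.43 at 48 hpi. Its controls had a mean of 7.99 with an SD of 0.06, and it rose by 0.48 ± 0.09 (1.40-fold; limma adjusted p = 0.0301). These 3 calls were close to the threshold. Icam2 and Esam lost the call in each of the 6 fits without 1 sample (limma adjusted p from 0.0547 to 0.0998 and from 0.0637 to 0.108). Cdh5 kept it only without control replicate 1 (0.0478, and up to 0.1 in the other fits).

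Pecam1 and Plvap passed only with the replicate block. Pecam1, the junction protein CD31 of endothelium, platelets and some leukocytes, read 6.39, 7.03 and 6.21 in the controls and 7.05, 7.30 and 6.88 at 48 hpi. Control replicate 2 lay above 48 hpi replicate 3, so the groups overlapped, while the differences within pairs 1, 2 and 3 were 0.65, 0.27 and 0.66. The fold change was 0.53 ± 0.22 (limma adjusted p = 0.247, and 0.0275 with the replicate block). Plvap, the protein of the diaphragms of fenestrae and caveolae, read 9.72, 9.44 and 9.23 in the controls and 10.10, 9.74 and 9.83 at 48 hpi. Its lowest value at 48 hpi lay just above its highest control, with pair differences of 0.37, 0.29 and 0.60 and limma adjusted p = 0.193, or 0.0383 with the replicate block. The other 4 genes of the group did not pass in either fit. Ptprb, the phosphatase that acts on TIE receptors, differed by 0.01 (95% interval -0.17 to 0.20), Robo4 by -0.05 (-0.30 to 0.20) and Cldn5, the main claudin of endothelial tight junctions, by -0.03 (-0.31 to 0.25). Another probe set of Ptprb was lower without overlap of the groups (-0.10; limma adjusted p = 0.541). Emcn, a sialomucin of capillaries and veins, had the widest interval of the group, from -0.21 to 1.08 around 0.43.

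**Figure D2:**
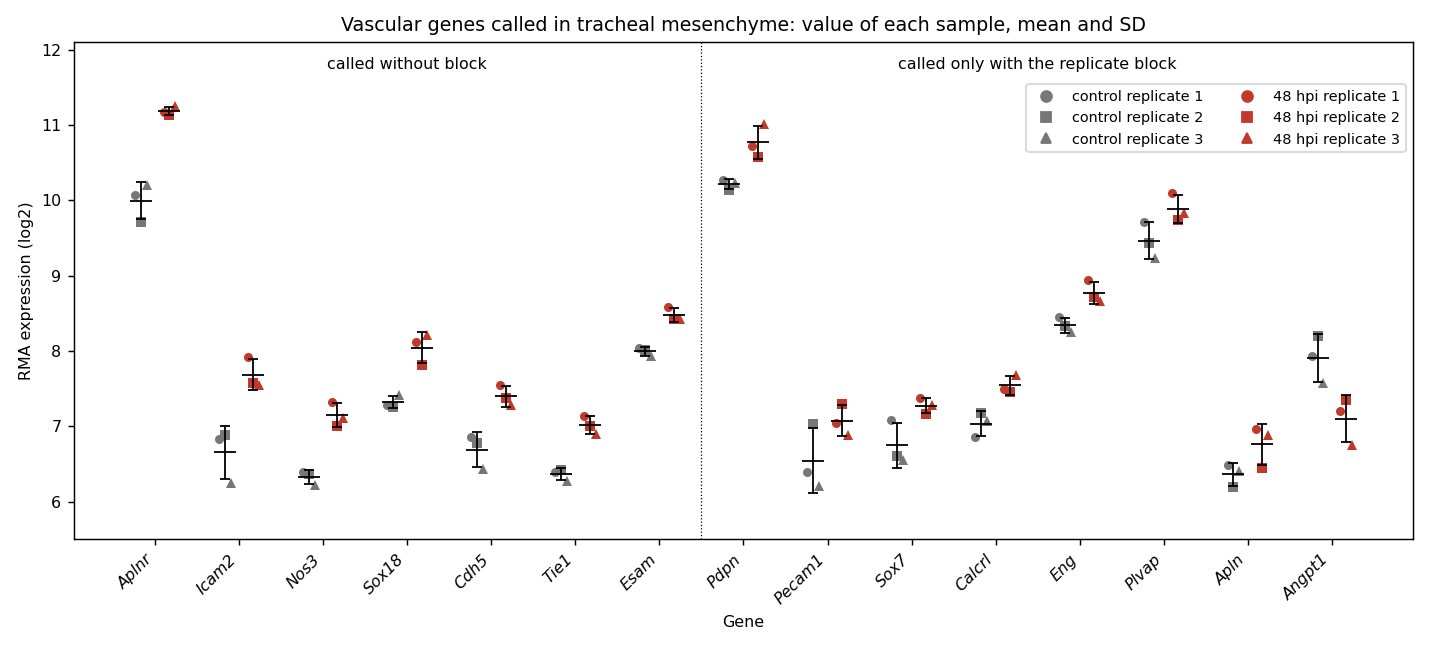
RMA expression (log2, vertical axis) of the 7 genes called higher by limma without the block (left of the dotted line) and the 8 called only with the replicate block (right), for each sample, with marker shape giving the replicate number and bars giving mean and SD (n = 3). Aplnr read 9.72 to 10.20 in the controls and 11.14 to 11.25 at 48 hpi, and Angpt1 is the 1 gene with lower values at 48 hpi.

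The 4 angiopoietin and TIE genes did not move together. Tie1, the TIE receptor that binds no angiopoietin by itself and modulates its partner, read 6.40, 6.42 and 6.27 in the controls and 7.14, 7.00 and 6.90 at 48 hpi. The values at 48 hpi were all above the controls, and it rose by 0.65 ± 0.10 (1.57-fold; limma adjusted p = 0.0155). The call was lost without control replicate 3 (0.0663), 48 hpi replicate 1 (0.0509) or 48 hpi replicate 2 (0.0503). Tek, the angiopoietin receptor TIE2, read 7.31, 7.75 and 7.14 in the controls and 7.90, 7.81 and 7.63 at 48 hpi. Control replicate 2 lay above the lowest sample at 48 hpi, the pair differences were 0.59, 0.06 and 0.49, and Tek did not pass (0.38, 95% interval -0.01 to 0.77; limma adjusted p = 0.276, and 0.0951 with the replicate block).

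Angpt1, the ligand that activates Tek and is made by mural and other stromal cells, read 7.94, 8.20 and 7.57 in the controls and 7.21, 7.35 and 6.75 at 48 hpi. Each sample at 48 hpi was below every control, and the pair differences were -0.73, -0.85 and -0.82. The log2 fold change was -0.80 ± 0.20 (0.575-fold), which did not pass without the block (limma adjusted p = 0.0842) and passed with it (0.00307). A second probe set of Angpt1, dim at 48 hpi (mean 4.63) and with overlapping groups, gave -0.34 ± 0.16 (limma adjusted p = 0.297, and 0.0833 with the replicate block). Angpt2, the angiopoietin that endothelium releases and that can oppose Angpt1, read 6.68, 6.71 and 6.29 in the controls and 6.55, 6.72 and 6.64 at 48 hpi, with overlapping groups. Its difference was 0.08, with a 95% interval of -0.23 to 0.38.

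None of the 3 VEGF ligands passed limma in either fit, 0 had an unadjusted p under 0.05, and none of their groups separated. Vegfa, the main growth factor of blood endothelium, read 6.67, 6.36 and 6.76 in the controls and 6.30, 6.43 and 6.38 at 48 hpi. Of the samples at 48 hpi, 2 lay within the control range and 1 just below it, with a difference of -0.23 (95% interval -0.51 to 0.06; limma adjusted p = 0.369). A second probe set of Vegfa gave 0.02 (limma adjusted p = 0.972). Vegfc, the lymphatic growth factor, read 8.47, 8.06 and 8.13 in the controls and 8.26, 8.15 and 8.17 at 48 hpi, a difference of -0.02 (-0.31 to 0.27). Vegfb differed by -0.10 (-0.50 to 0.31), and its value of 6.61 in 48 hpi replicate 3 was the lowest of its 6 samples.

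None of the 5 VEGF receptors and neuropilins passed limma in either fit, 0 had an unadjusted p under 0.05, and their log2 fold changes lay between -0.13 and 0.14. Kdr, the main signaling receptor for Vegfa, read 8.05, 7.76 and 8.10 in the controls and 7.81, 7.86 and 7.86 at 48 hpi. Flt1, which binds Vegfa and limits its action, read 7.75, 7.58 and 7.63 in the controls and 7.94, 7.68 and 7.76 at 48 hpi. Both sets of values overlapped between the groups, and the 95% intervals were -0.39 to 0.13 for Kdr and -0.10 to 0.38 for Flt1. The 3 other probe sets of Flt1 gave differences from -0.13 to 0.14, and none passed. The brightest of them read 7.80, 7.73 and 7.77 in the controls and 7.65, 7.58 and 7.66 at 48 hpi. It was lower without overlap of the groups (-0.13; limma adjusted p = 0.412), so the probe sets of Flt1 disagreed in direction. Flt4, the Vegfc receptor of lymphatic endothelium, differed by 0.09 (-0.27 to 0.44). Nrp1, a co-receptor for Vegfa and semaphorins, read 10.08, 10.22 and 10.19 in the controls and 10.18, 10.30 and 10.29 at 48 hpi, a difference of 0.09 (-0.11 to 0.29). Nrp2, the neuropilin of lymphatic and venous endothelium, read 9.11, 9.12 and 8.99 in the controls and 8.86, 9.19 and 8.98 at 48 hpi, a difference of -0.07 (-0.32 to 0.18). Another of the 4 probe sets of Nrp2 read 8.18, 8.34 and 8.06 in the controls and 8.57, 8.63 and 8.63 at 48 hpi (0.42 ± 0.10; limma adjusted p = 0.0651, and 0.0369 with the replicate block), so the probe sets of Nrp2 disagreed.

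Eng and Acvrl1 form an endothelial receptor complex for BMP9 and related ligands of the TGF-beta family. Eng, the co-receptor endoglin, read 8.45, 8.33 and 8.25 in the controls and 8.94, 8.72 and 8.66 at 48 hpi. The groups did not overlap, the pair differences of 0.49, 0.38 and 0.41 were close to each other, and the fold change of 0.43 ± 0.11 (1.34-fold) passed only with the replicate block (limma adjusted p = 0.0253, against 0.0791 without). Its second probe set gave 0.39 (limma adjusted p = 0.155, and 0.0414 with the replicate block). Acvrl1, the type I receptor ALK1, read 7.01, 6.79 and 6.57 in the controls and 7.35, 6.81 and 6.76 at 48 hpi, with 48 hpi replicate 1 standing above the other samples. Its difference was 0.18 (95% interval -0.25 to 0.62) and did not pass. The second probe set of Acvrl1 gave 0.26 without overlap of the groups (limma adjusted p = 0.272, and 0.1 with the replicate block).

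All 4 genes of the apelin and adrenomedullin pathways were higher at 48 hpi in all 3 pairs, against 26.6% of all genes. Their median log2 fold change was 0.46. Aplnr, the receptor for apelin, had the largest change of the 41 genes. It read 10.07, 9.72 and 10.20 in the controls and 11.18, 11.14 and 11.25 at 48 hpi. The 3 values at 48 hpi had a mean of 11.19 with an SD of 0.05, all above the controls, and the gene rose by 1.19 ± 0.13 (95% interval 0.89 to 1.50; 2.29-fold; limma adjusted p = 0.00446). The second probe set of Aplnr also passed (0.67 ± 0.14; limma adjusted p = 0.044). Apln, its ligand apelin, which sprouting endothelium makes, read 6.49, 6.19 and 6.41 in the controls and 6.96, 6.45 and 6.88 at 48 hpi. Samples numbered 2 were the lowest of both groups, and the groups overlapped by a small margin. Its fold change of 0.40 ± 0.15 passed only with the replicate block (limma adjusted p = 0.0368, against 0.213 without).

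Calcrl and Ramp2 together make the adrenomedullin receptor. Calcrl, its receptor subunit, read 6.86, 7.18 and 7.07 in the controls and 7.50, 7.45 and 7.68 at 48 hpi. The groups did not overlap, and the difference was 0.51 ± 0.11 (1.42-fold; limma adjusted p = 0.0581, and 0.0283 with the replicate block). Ramp2, the accessory protein that carries Calcrl to the cell surface, read 9.64, 10.00 and 9.91 in the controls and 10.19, 10.08 and 10.09 at 48 hpi. Its lowest value at 48 hpi was above its highest control, but its difference of 0.27 did not pass in either fit (limma adjusted p = 0.263).

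Nos3, the endothelial nitric oxide synthase that relaxes vessel walls, read 6.39, 6.37 and 6.22 in the controls and 7.32, 7.01 and 7.11 at 48 hpi. All samples at 48 hpi were above all controls. It rose by 0.82 ± 0.11 (1.77-fold; limma adjusted p = 0.00995) and passed in each fit without 1 sample (adjusted p up to 0.0493). The 4 secreted and matrix proteins of endothelium gave no limma call in either fit, and 1 of them, Mmrn2, was higher at an unadjusted p under 0.05. Mmrn2, a matrix protein that binds VEGF, read 9.25, 9.09 and 9.19 in the controls and 9.52, 9.36 and 9.55 at 48 hpi. Its groups did not overlap (0.30 ± 0.09; limma adjusted p = 0.137, and 0.0681 with the replicate block). Mmrn1, a protein of platelets and lymphatic endothelium, read 8.55, 8.57 and 8.28 in the controls and 8.38, 8.06 and 8.15 at 48 hpi, a difference of -0.27 (limma adjusted p = 0.298). Vwf, which binds platelets to injured vessel walls, differed by 0.24 (adjusted p = 0.544) and Egfl7, a secreted factor of growing vessels, by 0.27 (0.322). Another probe set of Egfl7 gave 0.41 (limma adjusted p = 0.0996, and 0.0406 with the replicate block).

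Of the 6 endothelial transcription factors, 1 was called higher and 2 with the replicate block, and both were SOXF factors. Sox18, which acts in blood and lymphatic endothelium, read 7.29, 7.26 and 7.42 in the controls and 8.12, 7.81 and 8.21 at 48 hpi. Its groups stood well apart, and it rose by 0.72 ± 0.12 (1.65-fold; limma adjusted p = 0.0239). The call held in 1 of the 6 fits without 1 sample, that without 48 hpi replicate 2, and the adjusted p ranged from 0.0155 to 0.0968 over them. Sox7, which acts with Sox18 in vessel growth, read 7.09, 6.60 and 6.55 in the controls and 7.37, 7.17 and 7.29 at 48 hpi. Control replicate 1 was close to the samples at 48 hpi, and the fold change of 0.53 ± 0.15 (1.44-fold) had a limma adjusted p of 0.116, or 0.0292 with the replicate block and 0.0268 without control replicate 1. A second, dim probe set of Sox7 gave -0.04. Sox17, the factor of arterial endothelium, read 7.05, 7.14 and 6.71 in the controls and 7.34, 7.16 and 7.41 at 48 hpi. Its lowest value at 48 hpi was just above its highest control, and its difference of 0.34 did not pass in either fit (0.233, and 0.165 with the replicate block). Erg, the ETS factor that maintains endothelial identity, differed by 0.09 (95% interval -0.12 to 0.31). Its second probe set gave -0.12 (limma adjusted p = 0.525). Tal1 and Lmo2, which act together in endothelial and blood cell precursors, differed by 0.18 and 0.05 with overlapping groups.

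**Figure D3:**
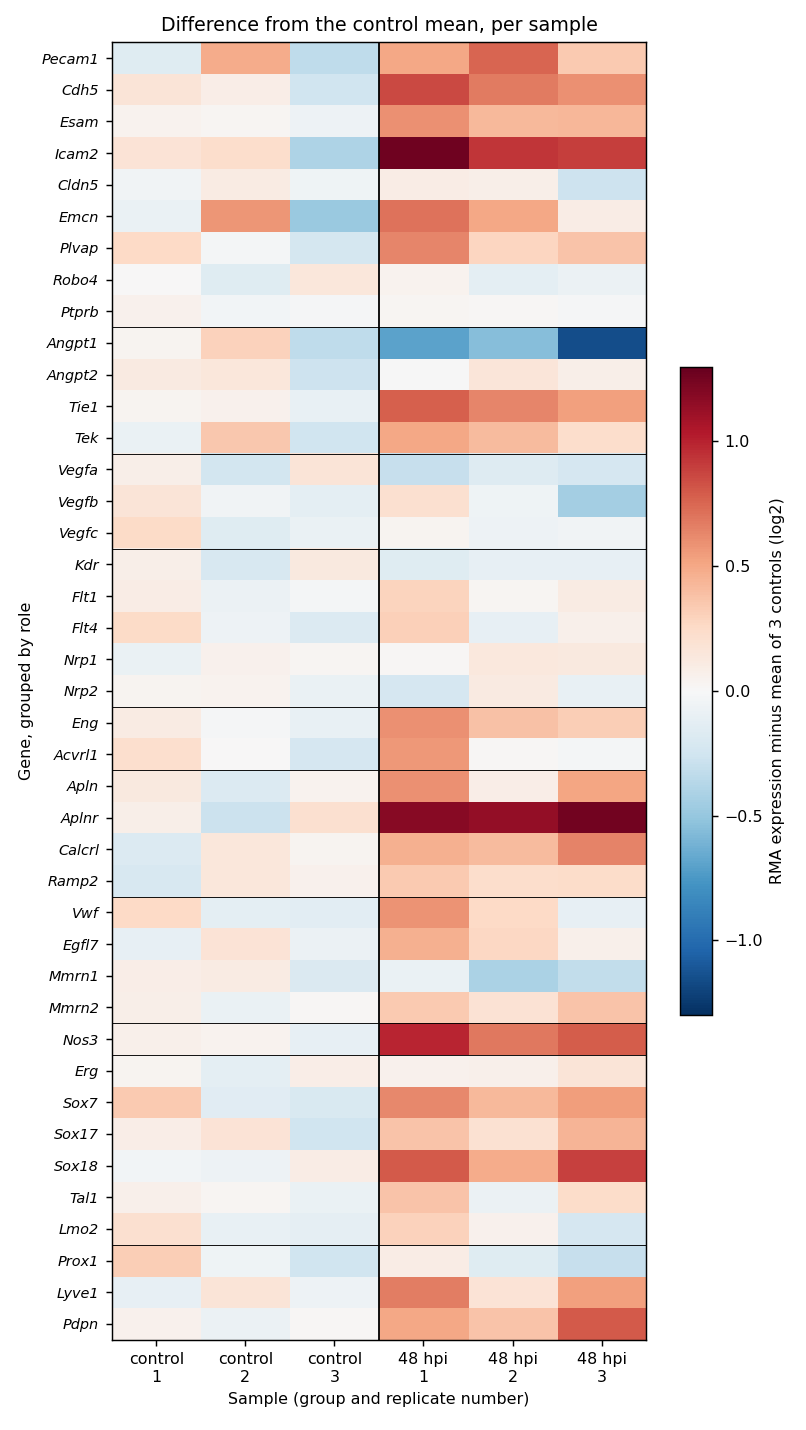
RMA expression of each of the 41 vascular genes (rows, grouped by role) in each of the 6 samples (columns), as the log2 difference from the mean of the 3 controls, red for higher and blue for lower. Icam2, Aplnr and Nos3 are red in all 3 samples at 48 hpi, Angpt1 is blue in all 3, and control replicate 2 is red for Pecam1, Emcn and Tek.

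No lymphatic gene was called by limma without the block, 2 of 3 were higher at an unadjusted p under 0.05, and 1 passed with the block. Pdpn, podoplanin, which marks lymphatic endothelium but is also made by fibroblasts and some epithelial cells, read 10.27, 10.14 and 10.23 in the controls and 10.72, 10.58 and 11.01 at 48 hpi. The groups did not overlap, and the difference of 0.56 ± 0.12 (1.47-fold) was close to the threshold (limma adjusted p = 0.0539, and 0.02 with the replicate block). Lyve1, the hyaluronan receptor of lymphatic capillaries and of some macrophages, read 9.52, 9.79 and 9.56 in the controls and 10.29, 9.80 and 10.16 at 48 hpi. Its 48 hpi replicate 2 was 0.01 above the highest control, and the difference of 0.46 ± 0.15 did not pass in either fit (0.147, and 0.102 with the replicate block). Prox1, the factor that sets lymphatic identity, read 4.96, 4.59 and 4.38 in the controls and 4.74, 4.49 and 4.34 at 48 hpi, where the array is dim, and its difference was -0.12 (95% interval -0.52 to 0.28).

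The question whether related genes moved unequally was put to 8 pairs of genes within each array. The level of 1 probe set against another carries no meaning, but the change of that difference does. The exact permutation test over the 20 assignments of 6 samples cannot go below p = 0.1, and adjusted over the 8 pairs no p was below 0.2. For 4 of the 8 pairs the groups did not overlap. Angpt2 minus Angpt1 went from between -1.49 and -1.26 in the controls to between -0.66 and -0.12 at 48 hpi, a shift of 0.88 (exact p = 0.1, two-sided, the smallest possible). Tie1 minus Tek went from between -1.33 and -0.86 to between -0.81 and -0.72, a shift of 0.27 that was 0.12 without control replicate 2, and whose exact p was 0.3 without any 1 of the samples at 48 hpi. Kdr minus Flt1 shifted by -0.27, and Mmrn1 minus Mmrn2 by -0.57, each also with exact p = 0.1. With the probe set of largest variance, the exact p of Kdr minus Flt1 was 0.3, and its shift was -0.18 without 48 hpi replicate 1. A similarly bright probe set of Flt1 changed by -0.13, as Kdr did, so the shift of Kdr minus Flt1 depends on the probe set of Flt1. Kdr minus that probe set was not tested. The other 4 pairs overlapped, with shifts of 0.38 for Sox18 minus Sox17, 0.24 for Eng minus Acvrl1, 0.16 for Nrp1 minus Nrp2 and -0.20 for Vegfa minus Vegfc. Within samples of the same number, all 8 differences shifted one way in all 3 numbers. In number 2 the shift was only -0.01 for Kdr minus Flt1, 0.01 for Nrp1 minus Nrp2 and -0.03 for Vegfa minus Vegfc. No share over other gene pairs was computed for this count or for the 4 pairs without overlap, so neither is read as a result. The exact test by sign flips within numbers, which has 8 assignments and was chosen after seeing the data, gave its smallest possible p of 0.25 for each pair.

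A list of 60 other genes of the same pathways was measured in full. Limma called 12 of them (20%) higher and none lower, against 4.97% and 1.24% of all genes. Those shares of all genes also apply beside the counts for the parts of the list below. The median log2 fold change of the 60 genes was 0.18. At an unadjusted p under 0.05, 23 were higher and 4 lower, against 14.6% and 9.29% of all genes. With the replicate block 17 were higher and 3 lower, against 8.77% and 4.64%. Without 48 hpi replicate 3 the count of genes called higher was 7. Of 8 molecules by which vessels hold leukocytes, or which line vessels as scavengers, 4 were called, with a list median of 0.69. Selp, P-selectin of activated endothelium and platelets, read 7.49, 6.49 and 6.53 in the controls and 8.61, 8.09 and 8.35 at 48 hpi, with all samples at 48 hpi above the controls. It rose by 1.52 ± 0.28 (2.86-fold; limma adjusted p = 0.0306), although of the fits without 1 sample only that without control replicate 1 kept the call, and the limma adjusted p was 0.0572 to 0.124 in the others. Vcam1, the receptor for leukocyte integrins, read 8.61, 8.38 and 8.71 in the controls and 9.69, 9.38 and 9.69 at 48 hpi (1.02 ± 0.13; 2.03-fold; limma adjusted p = 0.00847). Ackr1, the chemokine receptor of venules, rose by 1.17 ± 0.17 (2.26-fold; limma adjusted p = 0.0126), and Stab1, a scavenger receptor of sinusoidal endothelium and macrophages, by 1.34 ± 0.10 (2.54-fold; limma adjusted p = 0.0011). Icam1 (0.08, 95% interval -0.32 to 0.48) and Sele (0.36; limma adjusted p = 0.19) did not pass, and Sele lay at the dim end of the array.

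Among 13 other ligands and inhibitors, 2 were called, and 4 with the replicate block. Col18a1, the collagen from which endostatin is cut, read 8.53, 8.39 and 8.23 in the controls and 9.68, 9.62 and 9.69 at 48 hpi, and rose by 1.28 ± 0.10 (2.42-fold; limma adjusted p = 0.0011). Thbs1, thrombospondin-1, which platelets also carry, read 8.40, 7.92 and 8.09 in the controls and 9.44, 9.49 and 9.13 at 48 hpi, and rose by 1.21 ± 0.15 (2.32-fold; limma adjusted p = 0.00826). Both sets of samples at 48 hpi stood apart from the controls, and both calls held in each fit without 1 sample. Thbs2, thrombospondin-2 (0.93; limma adjusted p = 0.0645, and 0.00843 with the replicate block), and Angptl4 (0.83; 0.14, and 0.011) passed only with the block. The further VEGF family ligands Pgf (0.32; limma adjusted p = 0.219) and Vegfd (0.24; 0.23) did not pass, nor did Adm, adrenomedullin itself (-0.20, 95% interval -0.57 to 0.17).

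Of 18 other receptors and surface proteins, 3 were called. Cxcr4, the receptor for Cxcl12 on tip cells and on most leukocytes, read 5.85, 5.49 and 5.59 in the controls and 7.25, 7.06 and 6.88 at 48 hpi, and rose by 1.42 ± 0.14 (2.67-fold; limma adjusted p = 0.00268). Ecscr, an endothelial surface protein, rose by 0.93 ± 0.12 (1.91-fold; limma adjusted p = 0.0103, and 0.0559 without 48 hpi replicate 3). Cd93 (0.87; adjusted p = 0.00511), and among 21 intracellular genes Elk3 (0.66; 0.0245), Gja4 (0.63; 0.0217) and She (0.51; 0.0452), are named after their values were seen. Of the 6 fits without 1 sample, Cd93 passed in 6, Elk3 and Gja4 in 2 and She in 1, with limma adjusted p up to 0.0355, 0.0999, 0.0969 and 0.174. Dll4, the Notch ligand of tip cells, differed by -0.08 (95% interval -0.32 to 0.17). The 3 genes lower with the replicate block were Esm1 (-0.57; block adjusted p = 0.0229), Epas1 (-0.41; 0.0394) and Tspan18 (-0.35; 0.0472). Esm1 lay at the dim end of the array, with a mean of 4.25 at 48 hpi. Among receptors and intracellular genes, Notch4 (0.65; block adjusted p = 0.017), Hhex (0.59; 0.0178) and Hif1a (0.64; 0.05, below the threshold before rounding) were higher only with the block. These 6 genes, and Thbs2 and Angptl4, were also named after their values were seen.

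**Figure D4:**
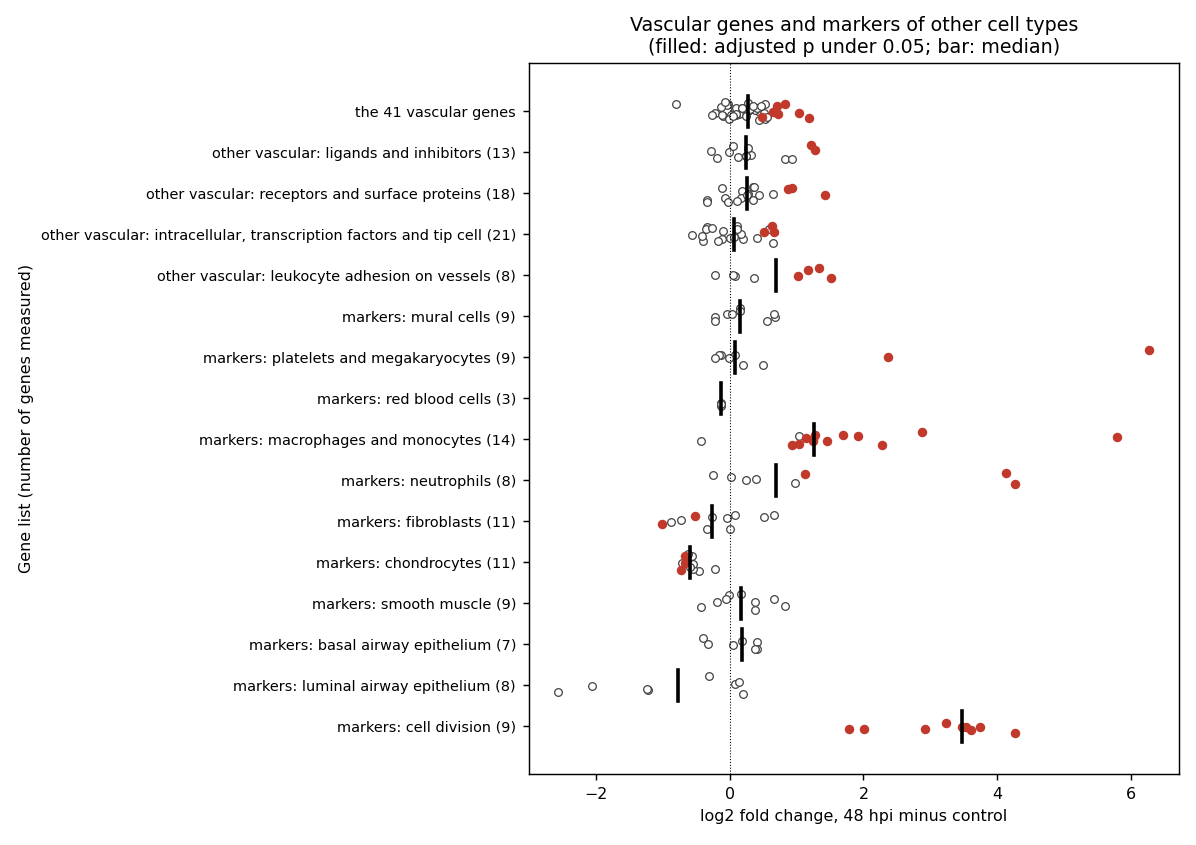
Log2 fold change (48 hpi minus control, horizontal axis) of every measured gene of the vascular lists and of the marker lists of other cell types, with filled points for limma adjusted p under 0.05 and a bar at each list's median. The median was 0.27 for the 41 vascular genes, 0.69 for leukocyte adhesion molecules, 1.26 for macrophage and monocyte markers and 3.48 for cell division genes.

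Markers of other cell types moved at the same time as the vascular genes. The shares of all genes given above, for calls in each fit and for unadjusted p, apply beside the marker counts. Of 14 macrophage and monocyte markers, 12 were called higher (13 with the replicate block), and their mean went from 7.71 to 7.89 in the controls to 9.22 to 9.68 at 48 hpi. Ptprc, the common leukocyte antigen CD45, read 8.63, 8.34 and 8.74 in the controls and 9.62, 9.45 and 9.73 at 48 hpi. Of 8 neutrophil markers, 3 were called higher (4 with the replicate block), and the list mean went from 4.97 to 5.57 in the controls to 6.39 to 7.00. Their median log2 fold change was 0.69, and 7 of the 8 were above 0. S100a8 (4.27) and S100a9 (4.13) rose most, while Camp differed by 0.01. Ngp was lower without overlap of the groups (-0.26; limma adjusted p = 0.167). Blood cells and macrophages share genes with endothelium, among them Pecam1, Icam2, Esam, Selp, Stab1, Cxcr4, Tal1, Lmo2, Lyve1 and Mmrn1. This list is not complete, and the part of these cells in the vascular results was not tested. Of 9 platelet markers, 2 were called higher, Pf4 and Ppbp, and 3 were higher at an unadjusted p under 0.05. Itgb3 rose by 0.49 without overlap of the groups but did not pass (limma adjusted p = 0.0967, and 0.0605 with the replicate block). Itga2b differed by 0.19, Gp9 by -0.13, Gp1bb by 0.07, Gp6 by -0.17, Treml1 by -0.02 and Clec1b by -0.23, none of which passed. The list mean of platelet markers was 5.60 to 5.80 in the controls and 6.53 to 6.81 at 48 hpi, while the median log2 fold change of its genes was 0.07. None of 3 red cell markers was called by limma or had an unadjusted p under 0.05, with means of 4.62 to 4.77 and 4.54 to 4.65.

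All 9 cell division genes measured were called higher. Their median was 3.48 on the log2 scale, and their list mean was 4.58 to 4.93 in the controls and 7.68 to 8.16 at 48 hpi. The cells in which they rose cannot be read from whole tissue. Of 9 markers of mural cells, which wrap capillaries and arterioles, limma called 0 higher or lower, 2 were higher with the replicate block and 2 were higher at an unadjusted p under 0.05. The highest list mean was 9.02 among the controls and 9.17 at 48 hpi, the groups overlapped, and 6 of the 9 fold changes were above 0. The 2 genes that passed only with the block were Kcnj8 (0.68; limma adjusted p = 0.0781, and 0.0209 with the replicate block) and Higd1b (0.55; 0.0569, and 0.0167), both without overlap of the groups. Rgs5, a marker of pericytes, differed by -0.23 (95% interval -0.61 to 0.15), and Pdgfrb by -0.05 (-0.28 to 0.18). Of 11 fibroblast markers 2 were lower, and with the replicate block 4 were lower and 2 higher, with a median of -0.27. Of 11 chondrocyte markers 3 were lower, and 8 with the replicate block, with a median of -0.60. The chondrocyte list mean went from 11.52 to 11.76 in the controls to 10.91 to 11.29 at 48 hpi, and its part in the vascular results was not tested. No marker of smooth muscle (9 genes), basal epithelium (7) or luminal epithelium (8) was called by limma without the block, and at an unadjusted p under 0.05 these lists had 0, 1 higher and 2 lower. With the replicate block the luminal genes Scgb1a1 (-2.57; block adjusted p = 0.0146) and Scgb3a2 (-2.07; 0.0339) were lower.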

How the data were processed

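RNA of tracheal mesenchyme was hybridised to Affymetrix mouse genome arrays, 3 control samples and 3 samples at 48 hpi. The authors peeled off the epithelium, extracted the RNA, amplified it and deposited RMA expression values on the log2 scale, which are background-corrected and quantile-normalised across arrays. Per the labels' processing notes, Affymetrix Expression Console 1.1 and Partek 6.5 were used. The number of arrays limits the precision. Arrays of 1 group correlated at r = 0.987 to 0.994.

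Of 45101 probe sets, 64 array controls were left out, and 45037 were tested with limma 3.58.1 in R 4.3.3 (lmFit, then eBayes, without covariates, two-sided p-values adjusted by Benjamini-Hochberg over all probe sets, threshold 0.05). The test without the block was checked on simulated data whose noise was independent between samples. That check does not cover deviations shared by samples of the same number. 34945 probe sets had 1 gene symbol, 932 had several and 9160 had none; symbols were updated by Entrez identifier for 34741. Each gene was read from the probe set with the highest mean. The 41 genes had 77 probe sets, and 22 genes had several. Genes were named with values in every sample where they passed without or with the replicate block, were in a tested pair, or had a fold change of at least 0.5 without overlap, and the other vascular genes by the 8 largest called changes. Members and lists were chosen with earlier results of these data known. Of 106 marker genes listed, 97 were measured.

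The methods do not say what a replicate number stands for. Deviations from the group mean correlated at 0.34 to 0.62 between samples of the same number and at most 0.18 between others, so a fit with the number as a block is given where it changes a call or a count named in the text. Other alternatives left out single samples, both samples numbered 1 or dim probe sets, used an intensity trend, equal-variance ANOVA on these 6 arrays (the methods' ANOVA also held epithelial samples), other probe sets or median scaling. Promoter windows came from RefSeq (GRCm38.p6).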

Additional observations from a re-analysis of the deposited data

How the results depend on the processing

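Of the 41 vascular genes, 7 were called higher by limma, and the count was 9 of 40 tested with dim probe sets left out (7.08% of all genes), 9 with array medians subtracted (973 of 18193 genes), 8 with an intensity trend (4.92%), and 7 with the probe set of largest variance or, chosen after seeing the data, with any probe set of a gene. With the replicate block it was 14 higher and 1 lower, where the fit compares samples of the same number. Leaving out 1 sample gave 2 to 5, and leaving out both samples numbered 1 gave 2, with fewer samples in the fit. Equal-variance ANOVA, which shares no variance between probe sets, called 0 higher and 0 lower, against 12 higher and 1 lower at an unadjusted p under 0.05. It called 0.225% of all genes higher. Of the 60 other vascular genes, 12 were called higher, 7 to 11 without 1 sample (7 without 48 hpi replicate 3) and 0 with ANOVA, against 18 higher and 2 lower at an unadjusted p under 0.05. The replicate block called 3 of the 60 lower, where the fit without it called 0. No fold change of a called gene and no shift of a pair whose groups did not overlap turned its sign under any alternative run. Kdr minus the similarly bright probe set of Flt1 was not among these alternatives.

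Calcrl and Pdpn passed with dim probe sets left out (limma adjusted p = 0.049 and 0.0458) and with array medians subtracted (0.044 and 0.0422), and Pdpn also with an intensity trend (0.0417). Elk3 did not pass with its probe set of largest variance (log2 fold change 0.48, adjusted p = 0.426), nor She with an intensity trend (0.0555), nor Vcam1 (0.0536) or Ecscr (0.0556) without both samples numbered 1. Depth does not apply to arrays, and signal over background limits Prox1, which lay below the bound set for dim probe sets.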
